A study of Mus musculus with 6 samples.

Results

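The cyclin-dependent kinase inhibitors studied here were the 7 genes of the CIP/KIP and INK4 families, Cdkn1a, Cdkn1b, Cdkn1c, Cdkn2a, Cdkn2b, Cdkn2c and Cdkn2d. Their members were taken as every non-control probe whose gene name, or the current symbol of whose accession, was one of these, which gave 12 of the 55681 probes on the array. The family was chosen because Cdkn2b stood among the largest rises in the same contrast that is described below, so the values of the members are given as a description. Their calls in the fit over all probes are only counted, beside the share called of all genes, and support nothing. The arrays held liver RNA of male C3H/HeN mice aged 74 to 75 weeks, with 3 samples of normal liver and 3 of liver tumor. According to the methods the tumors carried a Ha-ras mutation and the mice were F2 offspring of the control arm of a gestational arsenic project, kept on a standard diet and tap water. All 6 samples shared strain, sex, age and diet. Neither the number of tumors per animal nor an animal shared between a tumor and a normal liver was given. The 3 samples of a group may thus not be 3 independent animals, and the standard errors may understate the variation between animals. The spread between samples may also be technical in part. A tumor sample was bulk tissue and could hold cells other than tumor cells.

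The inhibitors of both families bind cyclin-dependent kinases and restrain the passage from G1 into S phase. INK4 proteins (p15, p16, p18 and p19Ink4d) bind Cdk4 and Cdk6 and keep them from the D-type cyclins, while the CIP/KIP proteins (p21, p27 and p57) bind complexes of cyclins with Cdk2 and other kinases. Cdkn2a also encodes p19Arf from another first exon, which binds Mdm2 and thereby stabilises p53, and p53 in turn activates transcription of Cdkn1a. In rodent cells, persistent Ras signalling is known to raise the Cdkn2a and Cdkn2b products and to lead to growth arrest or senescence, and the region that holds both genes is often deleted in cancers. C3H is a strain with a high rate of spontaneous liver tumors.

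The probes were 60-base oligonucleotides, and the first 30 bases of the brightest tested probe of each gene are printed 5' to 3' to show which stretch of each transcript carried the values.
Cdkn2b, probe A_55_P1988183: ccagtgatgaattgtagtggtagcaggtta
Cdkn2a, probe A_55_P2008437: ggcatgagaaactgagcgaaggcggccgcg
Cdkn2c, probe A_55_P2074796: cagtgtctgacttggagactttgttttaaa
Cdkn2d, probe A_55_P2022251: gataacatgagttcatttttctttcttgga
Cdkn1a, probe A_51_P363947: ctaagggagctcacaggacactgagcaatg
Cdkn1b, probe A_55_P2026562: gtgcttaaaaggttgcatactgagccaagt
Cdkn1c, probe A_51_P339540: cgtagagcagcccacggttttgtggaaatc
Across the 60 pairs of probes of different members, the longest run of identical bases was 8, although the members of a family are related in protein sequence. Both probes of Cdkn2a carry the same transcript accession. Since the p16Ink4a and p19Arf transcripts share their later exons, the values are not assigned to either product. Per the RefSeq annotation of GRCm38.p6, Cdkn2a lies at chr4:89274473-89294619 and Cdkn2b at chr4:89306289-89311032, 11670 bp apart. Cdkn2c lies on the same chromosome at chr4:109660876-109666756 and Cdkn2d at chr9:21288459-21291421. The CIP/KIP genes are at chr17:29090979-29100722 (Cdkn1a), chr6:134920401-134925525 (Cdkn1b) and chr7:143458339-143461059 (Cdkn1c).

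An expression value is the processed signal of a probe divided by the 75th percentile of its array, and a fold change is given as the difference of the mean log2 expression values, tumor minus normal, with the standard error of a limma fit over all tested probes. A probe counts as well above background on an array by the scanner software's own flag, and the 24898 probes that were so in every sample of either group were tested. The 75th percentile of the raw processed signal was 123.857 to 176.828 in normal livers and 171.02 to 182.627 in tumors, and 42.7% to 45.0% of spots were well above background in normal livers against 45.2% to 46.7% in tumors. No spot was saturated. The normal livers were all on 1 slide and the tumors on another, with a median local background of 42 to 45 and 22 to 23, and in every comparison below the slide and the tissue cannot be told apart. Hepatocyte markers were abundant in all samples, as Alb, which encodes albumin, had values between 1923 and 2449.

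Cdkn2b, which encodes the INK4 inhibitor p15, was low in every normal liver and high in every tumor. The expression value of its brighter probe was 0.188, 0.240 and 0.143 in normal livers 1 to 3 and 24.2, 19.0 and 16.3 in tumors 1 to 3. Its processed signals in the normal livers, 23.2, 40.7 and 25.4, were flagged well above background but were smaller than the local background of 41.5 to 45. The lowest tumor stood 68.2-fold above the highest normal liver, and within a group the highest sample was 1.48-fold (tumors) or 1.67-fold (normal livers) the lowest. The fold change of this probe was 6.72 ± 0.23 (SE, n = 3 and 3) on the log2 scale, with a 95% interval of 6.16 to 7.27, or 105-fold, which was rank 34 from the highest of the 18566 genes or unnamed transcripts tested. With normexp background correction (offset 50) in place of the scanner software's own, the change was 5.07 on the log2 scale or 33.6-fold. The offset is added to every signal, which by itself shrinks the changes of dim probes, also in the normexp values below. In bulk tissue, a change in the number of cells that express a gene and a change in RNA per cell cannot be told apart, here and below. The dimmer probe, A_55_P1979526, gave 0.0706, 0.0644 and 0.0737 in the normal livers and 2.99, 2.31 and 2.13 in the tumors. In none of the normal livers did it stand well above background, and its rise was 18.9-fold against a floor. This floor was the mean over the normal arrays of the lowest signal well above background, or of the probe's own signal where higher. Its measured means differed by 5.14 ± 0.16 (SE) on the log2 scale, or by 2.58, 5.99-fold, with normexp. The normexp fold is smaller, but the offset of 50 by itself shrinks it. The comparison therefore cannot decide whether the fold against the floor is a lower limit, and it is not read as one.

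Cdkn2a was higher in all tumors as well, with a wider spread between samples. Its brighter probe had expression values of 0.555, 0.734 and 1.56 in normal livers 1 to 3 and of 26.0, 20.5 and 9.78 in tumors 1 to 3. Tumor 3 was the lowest of the tumors at 2.66-fold below tumor 1, and the lowest tumor was 6.26-fold above normal liver 3, the highest of the normal livers. The change was 4.33 ± 0.49 (SE, n = 3 and 3) on the log2 scale, 20.1-fold, with a 95% interval of 3.16 to 5.51 and a value of 3.84 with normexp. The other probe of the gene, A_55_P2008438, was well above background in all tumors, at 1.67, 1.45 and 0.628, and in no normal liver. Against the same kind of floor its rise was 8.84-fold. Its measured means were apart by 4.71 ± 0.47 (SE) on the log2 scale, or 1.81, 3.50-fold, with normexp. This was again less than against the floor, and the offset shrinks it here too. Both probes of Cdkn2a and both of Cdkn2b ordered the tumors alike, tumor 1 highest and tumor 3 lowest. This order was not particular to the pair, as Cdkn2c, Ccne1 and Ccnd1 also had it.

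**Figure D1:**
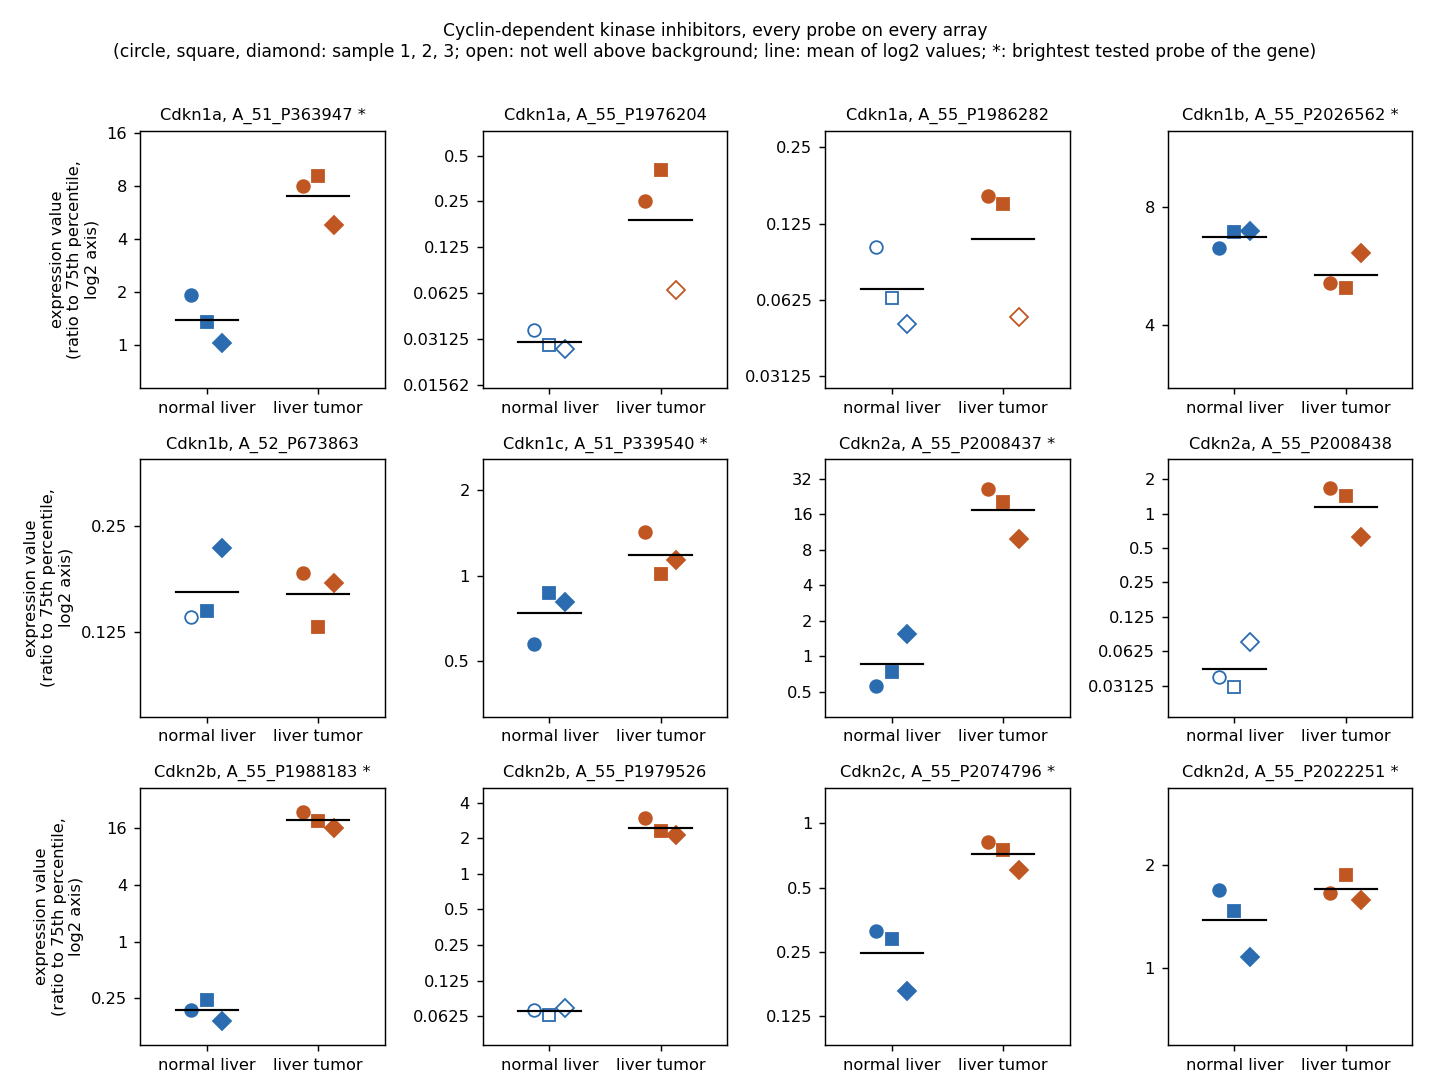
Expression value (ratio to the 75th percentile of the array, log2 axis, scaled separately in each panel) of all 12 probes of the inhibitors in normal livers (blue) and liver tumors (orange), where circles, squares and diamonds are samples 1, 2 and 3, open symbols were not well above background, lines are means of the log2 values and an asterisk marks the brightest tested probe of a gene. The groups lie apart by 68.2-fold at their nearest samples for Cdkn2b and overlap for Cdkn2d.

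Cdkn2c, which encodes p18, also stood higher in every tumor, by less. The normal livers had expression values of 0.314, 0.286 and 0.164, and the tumors had 0.819, 0.748 and 0.601. All tumors exceeded all normal livers, by 1.92-fold at the nearest pair, and the change was 1.55 ± 0.27 (SE, n = 3 and 3) on the log2 scale with a 95% interval of 0.90 to 2.19. The value was 0.76 with normexp. The processed signals of this probe in normal livers, 38.9, 48.6 and 29.0, were below the normexp offset of 50, so the part of the background correction itself cannot be told from it. Cdkn2d, which encodes p19Ink4d, had 1.69, 1.46 and 1.08 in normal livers and 1.66, 1.87 and 1.58 in tumors. These groups overlapped, and the difference of 0.29 ± 0.19 (SE) on the log2 scale had a 95% interval of -0.15 to 0.74. The INK4 family thus held the gene with the widest gap between the groups and also the member whose groups overlapped.

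The nearest measured genes on each side of the Cdkn2a and Cdkn2b pair are given because the pair is adjacent. Mtap, a methionine salvage enzyme gene that lies 93383 bp away on the side of lower coordinates, had values of 1.15, 1.37 and 1.04 in normal livers and 1.11, 1.12 and 1.25 in tumors. These groups overlapped, with a change of -0.03 ± 0.14 (SE) on the log2 scale and an adjusted p of 0.895 in limma, and the 95% interval was -0.36 to 0.30. Wincr1, a long non-coding RNA beyond Mtap, was below that level on all arrays. On the side of higher coordinates, Dmrta1, a gene for a DM domain protein 377166 bp away, was well above background in normal livers 2 and 3 and in no tumor, so it was not tested, and no fold is given. Zfp352, a zinc finger gene, had a change of -0.37 ± 0.20 (SE) with an adjusted p of 0.191 and was not called. Neither of the neighbours that could be tested was called.

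**Figure D2:**
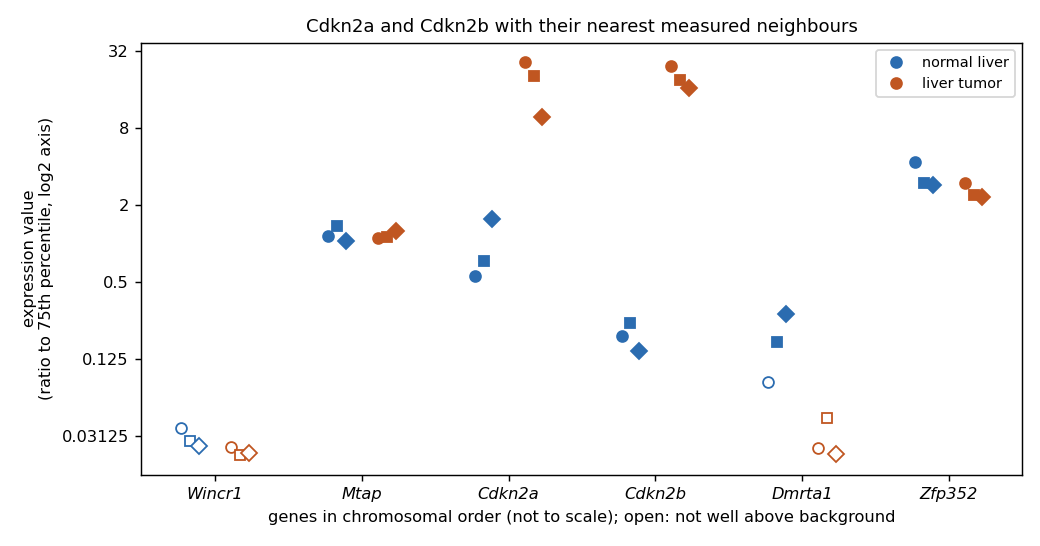
Expression value (ratio to the 75th percentile of the array, log2 axis) of Cdkn2a, Cdkn2b and the measured genes next to them, in chromosomal order and not to scale, in 3 normal livers (blue) and 3 liver tumors (orange), with circles, squares and diamonds for samples 1, 2 and 3 and open symbols for signals not well above background. The tumors stand above the normal livers for Cdkn2a and Cdkn2b, whereas those of Mtap lie among them; heights of different genes come from different probes and are not comparable.

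Upstream sequences of the adjacent pair and of Cdkn1a are printed to show what lies before the starts of the genes with the highest changes. They are the 250 bases before each annotated start in RefSeq (GRCm38.p6), written 5' to 3' on the strand of the gene, with matches to the motifs searched in capitals.
Cdkn2b, chr4:89311033-89311282, minus strand: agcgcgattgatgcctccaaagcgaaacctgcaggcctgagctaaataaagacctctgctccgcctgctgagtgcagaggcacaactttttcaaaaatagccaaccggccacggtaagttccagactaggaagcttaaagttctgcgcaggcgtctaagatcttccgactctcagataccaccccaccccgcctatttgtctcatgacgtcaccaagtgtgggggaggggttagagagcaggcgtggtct
Cdkn2a, start at higher coordinates, chr4:89294620-89294869, minus strand: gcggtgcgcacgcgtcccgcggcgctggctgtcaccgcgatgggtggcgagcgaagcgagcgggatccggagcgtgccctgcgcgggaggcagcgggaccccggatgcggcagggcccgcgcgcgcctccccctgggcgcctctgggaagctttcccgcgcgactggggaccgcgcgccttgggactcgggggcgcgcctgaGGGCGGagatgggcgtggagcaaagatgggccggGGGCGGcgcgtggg
Cdkn2a, start at lower coordinates, chr4:89282193-89282442, minus strand: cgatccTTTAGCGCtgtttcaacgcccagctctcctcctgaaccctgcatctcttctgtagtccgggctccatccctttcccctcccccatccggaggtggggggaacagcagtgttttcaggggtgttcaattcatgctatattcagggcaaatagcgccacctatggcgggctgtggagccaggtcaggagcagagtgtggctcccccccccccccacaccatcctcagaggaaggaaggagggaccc
Cdkn1a, start at higher coordinates, chr17:29093519-29093768, plus strand: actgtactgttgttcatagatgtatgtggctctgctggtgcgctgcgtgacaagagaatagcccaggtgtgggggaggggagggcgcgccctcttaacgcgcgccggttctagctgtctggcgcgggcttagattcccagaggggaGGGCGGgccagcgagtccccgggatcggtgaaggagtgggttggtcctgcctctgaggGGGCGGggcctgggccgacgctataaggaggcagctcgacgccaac
The motifs were searched on both strands as a GC box (GGGCGG, in 32.7% of the 32851 promoters listed), a TATA box (TATAAA, 12.4%), an E-box (CACGTG, 6.02%), an AP-1 site (TGANTCA, 6.75%) and an E2F site (TTTNGCGC, 1.13%), and no matches overlapped one another. The Cdkn2b window held 12 CpG dinucleotides and no match to any of them. Of the 2 Cdkn2a windows, that at higher coordinates held 40 CpG and 2 GC boxes and that at lower coordinates 7 CpG and 1 E2F match. The window printed for Cdkn1a held 19 CpG and 2 GC boxes, and its other start held 2 CpG and no match. Of the members whose windows are not printed, Cdkn1b had 28 CpG and 1 GC box and Cdkn2d had 16 CpG and 3 GC boxes, against a median of 6 CpG over all promoters. Cdkn2c had 29 CpG and 3 GC boxes at one start and 6 CpG and no match at the other. For Cdkn1c no window was available, so it was not searched. A match is only a run of letters and was not tested as a binding site.

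Of the CIP/KIP genes, Cdkn1a changed most. It encodes p21, the inhibitor under p53 control. Its brightest probe had expression values of 1.92, 1.35 and 1.01 in normal livers and 7.95, 9.11 and 4.78 in tumors. No tumor overlapped the normal livers, the nearest pair being 2.49-fold apart, and the change was 2.35 ± 0.32 (SE, n = 3 and 3) on the log2 scale with a 95% interval of 1.58 to 3.11, or 5.09-fold. With normexp it was 2.10. The array held 10 spots of this probe, and their SD on the log2 scale within an array was 0.0327 to 0.0949, while the SD between arrays was 0.461 for normal livers and 0.491 for tumors. The spots of an array share its RNA and labelling, so their SD covers spot error alone. Cdkn1a also had 2 dim probes, which were not tested because they were well above background on 2 of 3 tumor arrays and on no normal array. Probe A_55_P1976204 gave 0.254, 0.404 and 0.0657 in tumors and 0.0266 to 0.0356 in normal livers. Probe A_55_P1986282, which carries the accession of another transcript variant, gave 0.161, 0.149 and 0.0537 in tumors and 0.0503 to 0.101 in normal livers. Since tumor 3 was not well above background with either probe, no fold is given.

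**Figure D3:**
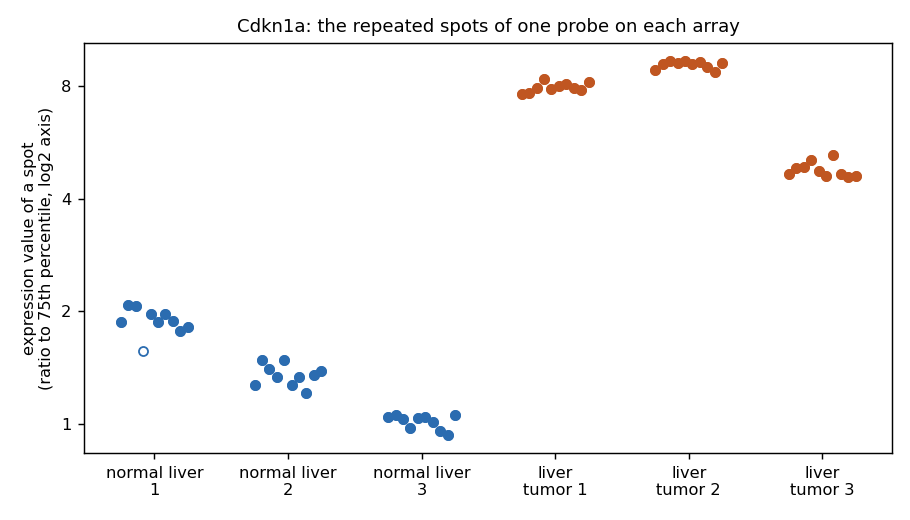
Expression value (ratio to the 75th percentile of the array, log2 axis) of each of the 10 spots of the Cdkn1a probe A_51_P363947 on the 6 arrays, normal livers in blue and liver tumors in orange, with 1 open circle for a spot that the scanner software marked as an outlier and that was left out. The spots of an array cluster tightly, and those of tumor 3 lie below those of tumors 1 and 2.

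Cdkn1b, which encodes p27, differed little between the groups. Its brighter probe had expression values of 6.32, 6.94 and 6.97 in normal livers and 5.14, 4.97 and 6.11 in tumors. The tumors lay below the normal livers without overlap, but the highest tumor and the lowest normal liver were close, and the change was -0.32 ± 0.12 (SE, n = 3 and 3) with a 95% interval of -0.62 to -0.03 on the log2 scale. The dimmer probe, A_52_P673863, overlapped between the groups at 0.138 to 0.216 in normal livers and 0.129 to 0.184 in tumors, with a change of -0.02 ± 0.23 (SE). It was well above background on 2 of 3 normal arrays and on all tumor arrays. Cdkn1c, which encodes p57 and is an imprinted gene, had values of 0.576, 0.867 and 0.807 in normal livers and 1.42, 1.02 and 1.13 in tumors. The groups did not overlap, but the nearest samples were only 1.17-fold apart, and the change was 0.68 ± 0.20 (SE) with a 95% interval of 0.19 to 1.17 on the log2 scale. This was the least stable of the members that were called. It was called in 6 of 15 alternative limma settings, the main fit not counted among them here and below. It was no longer called when any 1 of the 6 arrays was left out, with changes of 0.50 to 0.79.

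**Figure D4:**
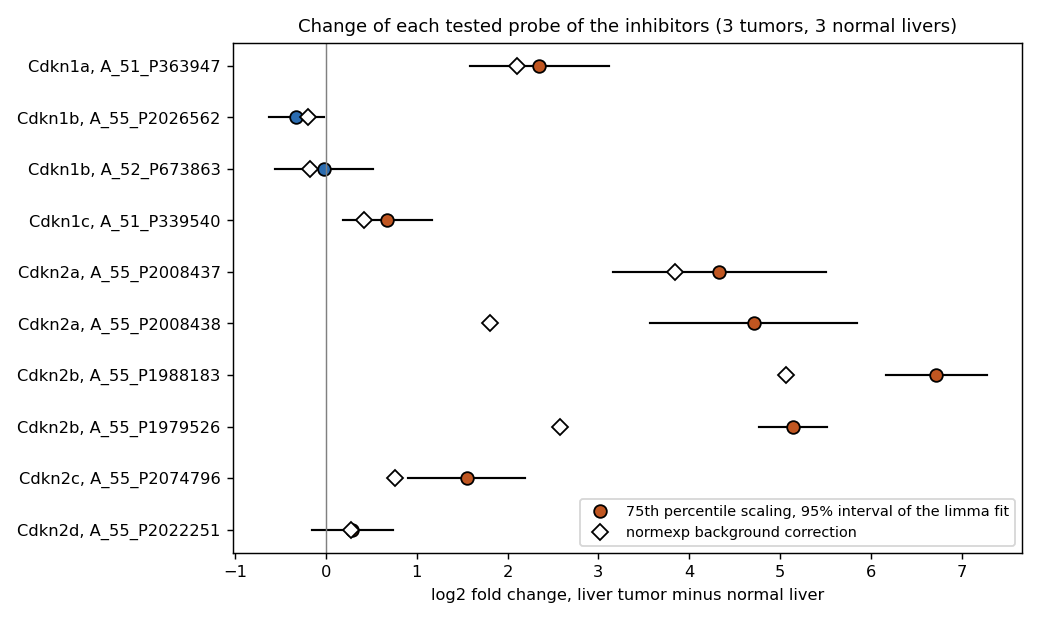
Log2 fold change, liver tumor minus normal liver, of the 10 tested probes of the inhibitors, as filled circles with the 95% interval of the limma fit (orange above 0, blue below 0), and with normexp background correction as open diamonds (3 tumors and 3 normal livers). The second probes of Cdkn2a and Cdkn2b, well above background in no normal liver, shrink most with normexp. They go from 4.71 to 1.81 and from 5.14 to 2.58. The brighter Cdkn2b probe goes from 6.72 to 5.07 and Cdkn2c from 1.55 to 0.76. The normexp offset of 50 adds to this shrinkage, and no called member changes direction.

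Over the 7 brightest tested probes, all well above background on all 6 arrays, 5 genes were called at an adjusted p under 0.05, namely Cdkn1a, Cdkn1c, Cdkn2a, Cdkn2b and Cdkn2c, and all 5 were higher in tumors. Of all genes tested 34.2% were called, 13.1% higher and 21.0% lower in tumors, and of all probes tested 33.1%. The groups did not overlap for 6 of the 7 members, and for 51.8% of all genes. The median change of the members was 1.55 on the log2 scale and that of all genes -0.13. Because the family was picked from this contrast, nothing is read from these counts. Of the 12 probes, 10 passed the filter, and 3 of these passed although they were not well above background in all normal livers. Ordered from the highest change among 18566, the ranks were 34 for Cdkn2b, 137 for Cdkn2a, 501 for Cdkn1a, 940 for Cdkn2c, 2197 for Cdkn1c, 3867 for Cdkn2d and 12353 for Cdkn1b. Tumor 3 was the lowest tumor for 5 members, the exceptions being Cdkn1b and Cdkn1c.

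Genes that act with the inhibitors were taken from 12 lists written with earlier results of these data known. Of their 179 genes 151 were tested, and 67 (44.4%) were called in limma, 55 higher and 12 lower in tumors, with a median change of 0.34 on the log2 scale against 34.2% called and a median of -0.13 over all genes. Of the tested genes 19 were dim in at least 1 normal liver and entered the test through the tumors. When the test was limited to probes well above background on all 6 arrays, 53 list genes were called, 41 higher and 12 lower.

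The direct targets of the inhibitors are the kinases and cyclins of G1. In this list 3 of 14 tested genes were called higher and 1 lower, with a median change of 0.20. Ccne1, the cyclin E that activates Cdk2, rose from 0.323 to 0.346 in normal livers to 8.57, 6.79 and 4.34 in tumors, a change of 4.23 ± 0.25 (SE) with a limma adjusted p of 0.000194. Ccnd1, the cyclin D1 that drives Cdk4 and Cdk6, rose from 1.82, 1.42 and 2.35 to 9.24, 8.79 and 6.36, a change of 2.14 ± 0.23 (SE, adjusted p = 0.00173 in limma). Rbl1, which encodes the retinoblastoma relative p107 and was well above background on 1 of 3 normal arrays, was called higher, with measured means 1.65 apart on the log2 scale, or 0.53 with normexp. Rbl2, which encodes the relative p130, fell by 0.97 on the log2 scale (SE 0.17, adjusted p = 0.00837 in limma). The INK4-bound kinases themselves did not pass the test, with Cdk4 at 0.26 ± 0.11 (SE). Cdk6 was well above background in tumors only, 1.57-fold above the floor of the normal livers. Its measured means were 1.08 apart on the log2 scale, or 0.24 with normexp. Cdk6 was called in 1 of the 14 limma settings that tested it, with spike-in scaling. Cdk2 had 0.49 ± 0.17 (SE), Ccnd2 0.14 ± 0.18, Ccnd3 -0.00 ± 0.23 and the retinoblastoma gene Rb1 -0.13 ± 0.16, and none was called. Cdk2 was called in 2 of 15 limma settings, with the replicate number as a block and with spike-in scaling. Ccne2 reached that level on no array. With normexp Ccne1 was at 3.19 and Rbl2 at -0.58 on the log2 scale.

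Downstream of Rb, the genes that E2F factors activate for S phase and mitosis were higher in tumors. Of 21 tested genes 18 were called higher in limma and none lower, with a median change of 2.60 on the log2 scale, or 1.14 with normexp. Of these genes 9 were dim in at least 1 normal liver and passed the filter through the tumors, and of the 12 well above background on all arrays 9 were called higher, with a median of 2.37. Ccnb1, the cyclin B1 of mitosis, had the highest measured change of the list. It was 0.0769, 0.0545 and 0.0442 in normal livers, in none of which it was well above background, and 2.04, 2.06 and 1.16 in tumors. The rise was 13.0-fold against the floor of the normal livers and 3.86-fold with normexp. The genes not called were Mcm4, Mcm7 and Pcna, parts of the replication machinery, with changes of 0.47 ± 0.18, -0.03 ± 0.14 and 0.01 ± 0.10 (SE). The same tumors thus had higher transcripts of inhibitors that hold cells in G1 and of genes used in S phase and mitosis, and in bulk RNA it was not tested whether these came from the same cells. Among the 10 genes of the E2F family and its partners, 3 were called higher and 2 lower. E2f2, an activator, rose by 1.31 ± 0.15 (SE, adjusted p = 0.00205 in limma), and E2f8, an atypical repressor, fell by 2.35 on the log2 scale (SE 0.48, adjusted p = 0.0131 in limma), or by 1.38 with normexp. E2f8 was well above background on 2 of 3 tumor arrays, and its change was -1.82 on the log2 scale without liver tumor 1. The median of this list was -0.27.

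**Figure D5:**
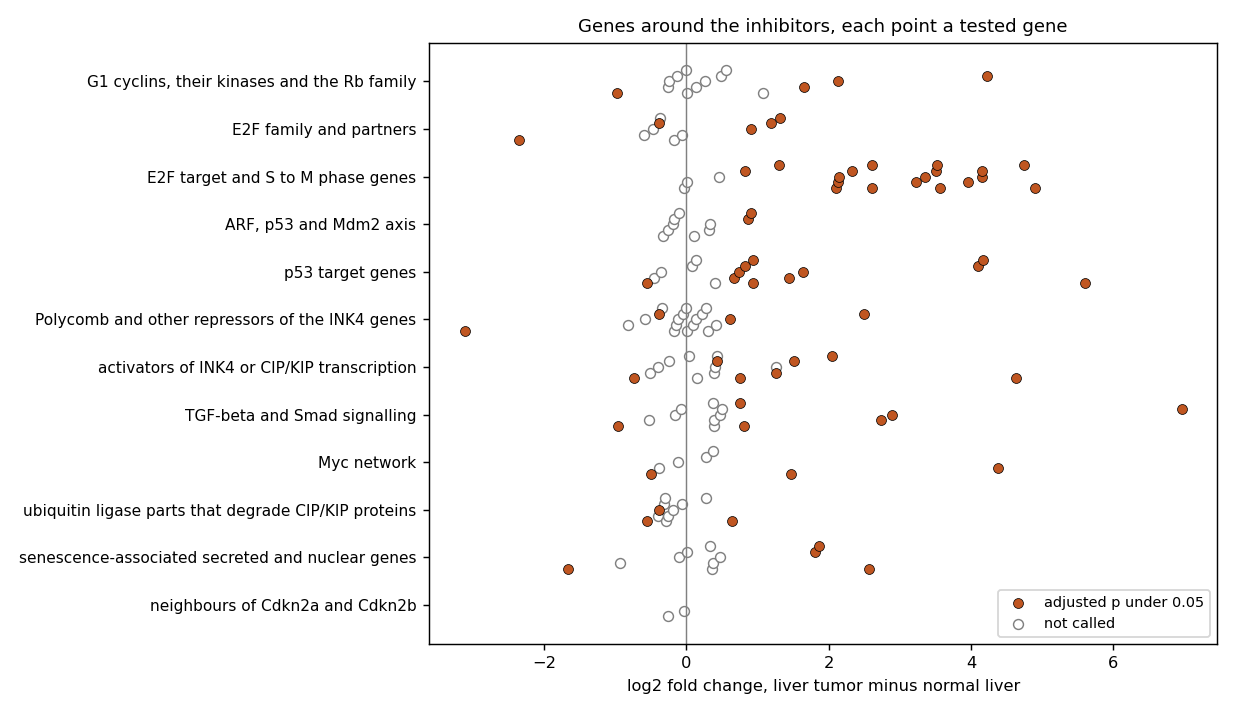
Log2 fold change, liver tumor minus normal liver, of the 151 tested genes of the 12 lists around the inhibitors, 1 list per row and 1 point per gene, filled where the limma adjusted p was under 0.05 and open where the gene was not called; vertical offsets within a row only separate the points. The list of S to M phase genes has 18 of 21 genes called on the right of 0, while most genes of the ARF, p53 and Mdm2 axis and of the Polycomb list lie near 0.

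The ARF, p53 and Mdm2 axis links Cdkn2a with Cdkn1a. Of its 10 tested genes 2 were called higher and none lower, with a median change of 0.00. Mdm2, the ubiquitin ligase for p53 and itself a p53 target, rose from 11.3 ± 0.650 in normal livers (SD, n = 3) to 24.6, 24.4 and 16.0 in tumors, a change of 0.91 ± 0.19 (SE, adjusted p = 0.0139 in limma). Trp53, which encodes p53, had a change of 0.34 ± 0.12 (SE) and was not called (adjusted p = 0.0696 in limma). The p53 target genes other than Cdkn1a and Mdm2 had 10 of 16 tested genes called higher and 1 lower, with a median of 0.78. Tnfrsf10b, which encodes the TRAIL receptor of mice, was well above background in no normal liver and at 3.61, 2.69 and 2.08 in tumors. Its rise was 21.0-fold against the floor of the normal livers and 6.10-fold with normexp. Fas, another death receptor gene, fell by 0.55 on the log2 scale (SE 0.15, adjusted p = 0.0308 in limma). For Mdm2 the lowest tumor was again tumor 3.

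Repressors of the INK4 genes changed little as a list. Of 19 tested Polycomb genes and other repressors, 2 were called higher and 2 lower, with a median of -0.00 on the log2 scale. Bmi1 and Ezh2, core subunits of the Polycomb complexes, had changes of 0.02 ± 0.13 and 0.14 ± 0.16 (SE) and were not called. Tbx3, a T-box repressor known to act on the Cdkn2a locus, was 5.60, 14.8 and 27.8 in normal livers and 0.748, 2.08 and 2.31 in tumors. It fell by 3.11 on the log2 scale (SE 0.67, adjusted p = 0.0156 in limma), with the groups apart and a wide spread between the normal livers, and it was not called without normal liver 2. Id1, an inhibitor of E-protein transcription factors, rose by 2.49 ± 0.53 (SE, adjusted p = 0.0151 in limma).

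Transcription factors and cofactors that activate INK4 or CIP/KIP genes had 6 of 16 tested genes called higher and 1 lower. Egr1, an immediate early factor induced by Ras and ERK signalling, rose from 0.555, 1.17 and 2.10 in normal livers to 36.4, 40.5 and 14.1 in tumors, a change of 4.63 ± 0.58 (SE, adjusted p = 0.00289 in limma). Its order within the normal livers and its lowest tumor were those of Cdkn2a, but its highest was tumor 2 and that of Cdkn2a tumor 1. Tumor 3 was the lowest tumor for most members as well. Cebpb, a C/EBP factor, fell by 0.74 on the log2 scale (SE 0.22, adjusted p = 0.0422 in limma). In TGF-beta signalling, which induces Cdkn2b in epithelial cells, 5 of 14 tested genes were called higher and 1 lower. Smad7, an inhibitor of the pathway, fell by 0.95 on the log2 scale (SE 0.22, adjusted p = 0.0208 in limma), and by 0.61 with normexp. The ligand gene Tgfb1 had a change of 0.40 ± 0.12 (SE) and was not called (adjusted p = 0.0501 in limma), but it was called in 3 of 15 limma settings, with the filter on all 6 arrays, the mean of a gene's probes and quantile normalization.

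Myc represses Cdkn2b and Cdkn1a. Myc itself was 0.851, 0.352 and 0.271 in normal livers and 0.330, 0.382 and 0.288 in tumors, a change of -0.39 ± 0.41 (SE) that was not called (adjusted p = 0.509 in limma). Of the 7 tested genes of its network 2 were called higher and 1 lower. Mycn was well above background on 1 of 3 normal arrays and on all tumor arrays, at 1.38, 1.78 and 0.874 in tumors. It was called higher, but its measured means, 4.38 apart on the log2 scale or 1.72 with normexp, rest on normal values mostly at background. Mxd4, a Max partner that opposes Myc, fell by 0.50 on the log2 scale (SE 0.10, adjusted p = 0.0137 in limma). Ubiquitin ligase parts that degrade p21, p27 and p57 had 1 of 11 tested genes called higher and 2 lower. Cks1b, the cofactor by which Skp2 recognises p27, rose by 0.65 ± 0.19 (SE, adjusted p = 0.0438 in limma), Ubac1 fell by 0.55 on the log2 scale (SE 0.12, adjusted p = 0.0151 in limma), and Skp2 was too dim to be tested.

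Secreted and nuclear genes associated with senescence had 3 of 11 tested genes called higher and 1 lower, with a median of 0.37. Gdf15, a stress-induced cytokine, rose from 0.941, 1.37 and 1.48 in normal livers to 9.94, 8.96 and 4.45 in tumors, a change of 2.57 ± 0.34 (SE, adjusted p = 0.00333 in limma). Igfbp5, a binding protein of insulin-like growth factors, fell by 1.66 on the log2 scale (SE 0.43, adjusted p = 0.0273 in limma), or by 0.91 with normexp. Il6, a hallmark cytokine of senescent cells, was too dim on all arrays to be tested. Of the calls on list genes, those of Fas, Cebpb and Cks1b held in 7 of 15 limma settings each, and those of Smad7 and Igfbp5 in 10 of 15. The calls of Fas and Cks1b were lost without each array other than normal liver 3, and that of Cebpb without each array other than liver tumor 1. Smad7 was not called without liver tumor 1, liver tumor 2 or normal liver 2, Igfbp5 not without these or normal liver 1, and Mxd4 not without normal liver 2. The list of neighbours of Cdkn2a and Cdkn2b had 2 tested genes and no call.

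The genes whose pattern over the 6 arrays was most like that of a member were found among 13488 genes named through RefSeq, by the smallest root mean square difference of log2 values centred on their mean. They were chosen for this likeness, and the 2 groups alone fix most of the pattern. For Cdkn2b they were Scd2, Tlr1 and Galnt6 with differences of 0.274, 0.293 and 0.309, and for Cdkn2a Stambpl1, Egr1 and Cgref1 with 0.258, 0.294 and 0.313. The nearest to Cdkn1a were Bub1, Cdk1 and Foxm1 at 0.146, 0.184 and 0.187, which were well above background on at most 1 normal array. Tlr1, Stambpl1 and, below, Sohlh1 were so on none, so their likeness rests on normal values at background. Cdkn2c lay nearest to Mycl, Lmntd2 and Col1a1 at 0.0882, 0.131 and 0.137. The members that changed little had closer neighbours, Psmf1, Flii and Gm6524 at 0.0173 to 0.0282 for Cdkn1b, Marchf3, Rnf181 and Raph1 at 0.0789 to 0.0994 for Cdkn1c, and Sohlh1, Map6d1 and Dtx4 at 0.0591 to 0.0718 for Cdkn2d. Neither Cdkn2a nor Cdkn2b was among the 3 nearest to the other.

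Markers of some other liver cell types differed between the groups and those of others did not, and their part in the changes of the inhibitors was not tested. Of macrophage and Kupffer cell markers 7 of 10 tested genes were called lower in tumors and none higher, with a summed expression value of 92.9 to 150.1 in normal livers and 48.7 to 77.8 in tumors. Csf1r, the brightest, changed by -0.81 ± 0.18 and Clec4f, a Kupffer cell lectin, by -1.84 ± 0.35 (SE). Stellate cell and fibroblast markers had 2 of 10 called higher and 5 lower, with sums of 89.0 to 106.0 and 30.2 to 50.4. The sums follow the brightest genes, and the list did not move as 1, since 5 of 10 had higher measured means in tumors. Among these was Col1a1 at 1.58 ± 0.34 (SE). Dcn, the decorin gene, was at -1.64 ± 0.28 and Lrat, the enzyme that esterifies retinol for storage, at -1.83 ± 0.22 (SE). Endothelial markers had 1 of 10 called higher and 3 lower, with sums of 106.5 to 120.2 and 81.9 to 91.4, of which Clec4g was at -0.49 ± 0.15 and Lyve1 at 1.50 ± 0.58 (SE, not called). The sum of lymphocyte markers went from 66.5 to 70.4 up to 142 to 245 through Cd4 alone, at 1.59 ± 0.21 (SE), the only call among 5 tested genes, while Cd8a was not detected above background in either group. None of 5 tested neutrophil markers was called, with sums of 149.5 to 170.7 and 132.9 to 184.4, Csf3r at -0.01 ± 0.15 and S100a9 at 0.71 ± 0.55 (SE), and Mpo not well above background. None of 5 tested cholangiocyte markers was called, with sums of 2.55 to 3.13 and 2.15 to 2.37, Spp1 at -0.19 ± 0.12 and Cftr at -0.69 ± 0.34 (SE), and Muc1 not well above background. Hepatocyte markers had sums of 10863 to 12138 and 10556 to 11107, with Alb at -0.06 ± 0.13 and 1 of 9 tested called, Apoa1, at 0.90 ± 0.14 (SE).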

How the data were processed

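Per the labels, Cy3-labelled RNA of 3 normal livers and 3 liver tumors was hybridised to 6 one-colour Agilent mouse arrays. The authors deposited the scanner output of each array, in which Feature Extraction had subtracted the background from the processed signal intensity and detrended it over the slide (12.0.3.1 in the submitters' processing notes, 10.7.3.1 per the file headers). They also deposited a table of the same values as a linear ratio to the 75th percentile of the array, used here as an alternative. Low intensities are where the background correction matters most, since a dim spot holds little signal above it, and with 3 arrays a group precision is limited by their number.

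From the deposited intensities, the log2 processed signal minus log2 of the 75th percentile over all spots was computed, without control spots and outlier spots (a flag in the deposited files), and spots of a probe were averaged. Probes well above background in every sample of either group entered a two-sided limma fit (lmFit and eBayes, version 3.58.1, under R 4.3.3), whose p-values were adjusted by Benjamini-Hochberg over all tested probes and read at a threshold of 0.05. The brightest tested probe represented a gene. Tables were made with pandas 2.3.3 and numpy 2.4.6 and figures with matplotlib 3.10.9 (Python 3.11.15); the methods' t-test was run in scipy 1.17.1. Names and positions came from RefSeq (GRCm38.p6), through the accession for 27229 probes, the symbol for 3586 and a synonym for 565, while 24301 kept the design's name. The fit was tested on simulated data.

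The members, the 19 gene lists and the tests were chosen with earlier results of these data known. Named are all members, the genes with the largest called rise and fall of each list, set binding partners and regulators, the brightest and the most changed marker of each cell type, the 3 genes most like each member and the nearest measured neighbours of Cdkn2a and Cdkn2b. A few others (Rbl1, Mcm4, Mcm7, Pcna, Il6 and markers not well above background) were named after their values were seen. A single named result is not reported here. Alternatives were normexp (offset 50) for the background, quantile or spike-in scaling, other filters on dim probes, the deposited ratios, a trended eBayes, averaging the probes of each gene, a block for the replicate number, leaving out each array, and the methods' t-test. The slide was not used as a block because each slide held 1 group.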

Additional observations from a re-analysis of the deposited data

How the results depend on the processing

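Calls of the members, which support nothing since the family was chosen from this contrast, were made in 15 of 15 limma settings for Cdkn1a, Cdkn2a, Cdkn2b and Cdkn2c and in none for Cdkn1b and Cdkn2d, and no member changed direction. The change of Cdkn2b was 5.07 with normexp and 5.93 as the mean of its probes, against 6.72, and 6.53 to 6.90 on the log2 scale with 1 array left out. Leaving out 1 array gave 4954 to 7172 called probes (8238 with all), 4 called members, and 50 to 61 called list genes, 46 to 52 higher and 4 to 9 lower. The lowest of these counts of probes, 4954, came without normal liver 2, and the called lower list genes were 4 without normal liver 2 and 5 without liver tumor 2. Without a filter on dim probes 4674 probes and 4 lower list genes were called, and with spike-in scaling 5282 and 4. Spike-in scaling moved the median change of all probes from -0.13 to 0.07 on the log2 scale and the share of calls that were higher from 37.8% to 63.6%. The methods' t-test, unpaired and after Benjamini-Hochberg adjustment, called 5263 probes, 2 members and 40 list genes (34 higher and 6 lower). In its paired form 3 members passed at an unadjusted p under 0.05, as did 7420 probes (2405 higher and 5015 lower), and after adjustment 0 probes, 0 members and 0 list genes, 0 higher and 0 lower, were called. The cause of these differences was not tested.

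Whether a tumor and a normal liver of the same replicate number belong together was not settled. The correlation of their deviations from the group means was 0.0506 to 0.132 for the same number and -0.139 to 0.0550 for different numbers. Of the 6 arrays 4 correlated best with their own number. The methods name a paired t-test, but which samples were paired was not given. With the replicate number as a block, 7020 probes, 4 members and 62 list genes were called, Cdkn1c no longer among them and Cdk2 added. The second probes of Cdkn2a and Cdkn2b were not well above background in normal livers, so that their folds depend on the background correction and its offset. The brighter Cdkn2b probe was dim in normal livers as well, and its fold was 105 in the main setting and 33.6 with normexp.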
